A study of Mus musculus with 8 samples.

Results

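Quiescent neural stem cells of the hippocampus and mature astrocytes share much of their gene expression, and the cells described here are a split of that shared astroglial pool in the mouse dentate gyrus. The pool was chosen by measured gene expression. A barcode entered it with over 500 genes, under 10% of its unique molecular identifiers (UMIs) from mitochondrial genes, at least 3 of the astroglial genes Aldoc, Slc1a3, Slc1a2, Gja1 and Ntsr2, at most 1 of 8 genes of other lineages (Mog, Mag, Mobp, Cx3cr1, Cldn5, Pdgfra, Stmn2, Eomes), and at most 2 of 10 cell cycle genes (Mcm2 to Mcm7, Pcna, Top2a, Cdk1, Ccnb1). Cells in which S100b, Aqp4, Gjb6, Grin2c and Hsd11b1 together made up at least 0.1% of UMIs are called astrocyte-high cells. Cells under that limit with at least 1 UMI of Hopx, a homeodomain-only protein gene used as a marker of quiescent stem cells, are called Hopx+ cells. Of 26036 barcodes, 6237 were in the pool, of which 2160 were Hopx+, 2270 were astrocyte-high and 1807 were in neither group.

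The cells came from Ki67TD-NES mice, which carry a Nestin-GFP transgene, a Ki67-creERT2 allele and a tdTomato reporter that recombines after tamoxifen in cells expressing Ki67. All groups therefore share these alleles and tamoxifen on 6 days with culling on the 8th day, and each experiment pooled several mice of both sexes. The dentate gyrus, by the study's methods (the labels name hippocampus), was dissociated, GFP+tdT+ and GFP+tdT- cells were sorted and droplet libraries were made with Version 2 chemistry in 3 experiments on mice aged 2 months and with Version 3 in 1 experiment on mice aged 1 month and 3 on mice aged 6-8 months (6 months in the labels), so that the 2-month age and the chemistry cannot be told apart. The sort selected on GFP, which Nestin regulatory sequence drives, so astrocyte-high cells of GFP+ sorts are not a sample of all hippocampal astrocytes. The first experiment at 2 months has a library for each tdTomato sort, and for the tdTomato+ one cells negative for both colours (GFP-tdT-) are named as well, so that part of its cells need not have passed the GFP gate. That library gave 444 of the experiment's 823 astrocyte-high cells and 18 of its 414 Hopx+ cells. Both libraries were summed as 1 experiment, which leaves 7 experiments with both groups in each.

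Radial glia-like stem cells lie in the subgranular zone with a process through the granule cell layer, and in quiescence they express Hopx together with many genes that astrocytes also use. Astrocytes take up glutamate and potassium, supply neurons with lipids and glutamine, and keep the brain's glycogen.

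Counts were summed over the cells of each group in each experiment, and levels are given as CPM, the gene's UMIs per 1000000 UMIs of that sum. Each sum held between 136460 and 5090898 UMIs, and median UMIs per cell ran from 1111 to 7920.5 (Version 2 libraries 1111 to 2526, Version 3 libraries 3265.5 to 7920.5). Of all barcodes, 119 were found in more than 1 library; 13 of these were members of either group, and 2 were members in both of their libraries. No doublet caller was run, and the limit on genes of other lineages is the only guard against mixed droplets.

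The astrocyte label did not hold for all astrocyte-high cells. A count of 9 genes of oligodendrocyte precursors, the dividing glia that give rise to myelinating cells (Pdgfra, Cspg4, Olig1, Olig2, Sox10, Gpr17, Lhfpl3, C1ql1, Neu4), showed that 762 of 2270 astrocyte-high cells (33.6%) and 132 of 2160 Hopx+ cells (6.11%) had more than 2 of them. In the astrocyte-high group the share of these cells, called precursor-gene cells here, was 26.5% at 1 month, between 4.19% and 31.9% at 2 months, and 30.8%, 68.9% and 74.5% in the experiments at 6-8 months. Of the cells in neither group, 1483 of 1807 (82.1%) were precursor-gene cells. In precursor-gene astrocyte-high cells S100b, a calcium-binding protein gene that oligodendrocyte lineage cells also express, made up 97.6% of the UMIs of the 5 astrocyte genes (7564 of 7750). In the other astrocyte-high cells it made up 20.5% (2437 of 11872). Levels of other astrocyte genes of the rule restate these shares of S100b and are a description only. The water channel gene Aqp4 was at 13.0 CPM in precursor-gene astrocyte-high cells and at 678 CPM in the others. The gap junction gene Gjb6 was at 7.61 and 533 CPM in the same order, while the growth factor receptor gene Pdgfra was at 1162 and 2.68 CPM. The transcription factor gene Olig1 was at 3980 CPM in the former and 98.7 CPM in the latter. Pdgfra and Olig1 are among the 9 genes that define precursor-gene cells, so their difference follows from that definition and is a description only.

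**Figure D1:**
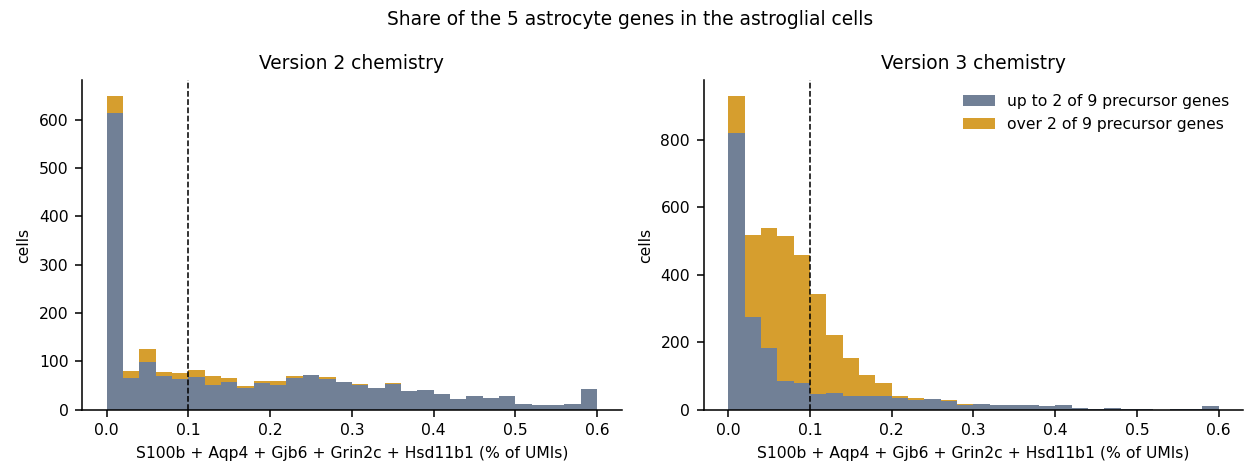
Number of pool cells (vertical axis) by the share of a cell's UMIs from the 5 astrocyte genes (horizontal axis, percent), in a panel for each chemistry version, with cells of more than 2 precursor genes stacked on those of up to 2 and a dashed line at the 0.1% limit. The cells with more than 2 precursor genes sit on both sides of the limit, mostly in Version 3, and the highest shares, pooled in the last bar, belong mostly to cells with up to 2.

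Cells at the limit of the split were thus largely precursor-gene cells in the Version 3 libraries. There, of the cells just above the limit (0.1% to 0.12%), 86.3% were precursor-gene cells and 21.9% had Hopx, and just below it (0.08% to 0.1%) 83.0% were precursor-gene cells and 24.0% had Hopx. In the Version 2 libraries 18.3% just above and 17.1% just below were precursor-gene cells, and 37.8% and 48.7% had Hopx. Because of these cells, the count of genes called in each pathway list is given over all members and over the 2028 Hopx+ and 1508 astrocyte-high cells with up to 2 precursor genes. That restriction was added after the data were seen, and unless stated otherwise the gene values that follow are those of the restricted cells.

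The genes of the rule show how the split was made and are given as a description with no test. Over all members, 1010 of 2160 Hopx+ cells (46.8%) held no UMI of the 5 astrocyte genes, and 40 of 2270 astrocyte-high cells (1.76%) held 1. In the second experiment at 2 months, 79.3% of Hopx+ cells held none, and 34 of 215 astrocyte-high cells (15.8%) held 1. Without precursor-gene cells, S100b lay between 7.58 and 21.5 CPM in the Hopx+ sums and between 302 and 789.8 CPM in the astrocyte-high sums. Hopx was between 5792 and 6176 CPM in Hopx+ cells of the Version 3 libraries and between 917 and 1327 CPM in those of the Version 2 libraries. Astrocyte-high cells were not free of it, with 3129 to 4065 CPM in the Version 3 sums and 260 to 327 CPM in the Version 2 sums. Over all members, at least 1 UMI of Hopx was found in 902 of the 2270 astrocyte-high cells (39.7%). By experiment the share was 27.4% to 37.7% in Version 2 and 31.9% to 73.9% in Version 3. Precursor-gene cells among them held 57.8 CPM of Hopx and the others 1939 CPM. Every other gene was measured in the same cells as the rule genes, so a gene that tracks them across cells had to differ between the groups.

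Over all members, 5898 genes were tested with edgeR's quasi-likelihood test with the experiment as a block, and differences are log2 values of Hopx+ minus astrocyte-high cells with their standard error. At a Benjamini-Hochberg adjusted p under 0.05, 755 genes (12.8% of those tested) were higher in Hopx+ cells and 845 (14.3%) were higher in astrocyte-high cells. Without precursor-gene cells, 4921 genes were tested, and 1216 (24.7%) were higher in Hopx+ and 1150 (23.4%) in astrocyte-high cells. The counts of every gene list below are to be read against these shares, the first pair for all members and the second for the restricted cells. They cover only the genes of a list that passed the filter on low counts, and the others were not tested. Of the 755 genes higher in Hopx+ cells over all members, 577 were called again in the restricted cells, which is 76.4% of the first list and 47.5% of the second. For astrocyte-high cells 398 genes were shared, 47.1% of the first list and 34.6% of the second, and 322 genes of the first list fell under the filter on low counts once the precursor-gene cells were left out. The direction turned for 15 genes called in both. One of these was Stmn3, a stathmin gene of neurons, which went from -0.91 to 1.04. Scaling by total UMIs in place of TMM, edgeR's trimmed mean of M-values, moved the share of restricted calls that were higher in Hopx+ cells from 51.4% to 63.8%, with a median difference over all genes of 0.05 under TMM and 0.15 under total UMIs.

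Radial glia-like stem cell genes outside the rule were mostly higher in Hopx+ cells. Of 21 tested, 14 were higher in Hopx+ cells, 3 were higher in astrocyte-high cells and 4 were not called (15, 1 and 5 over all members). The median of the 21 was 1.02, against 0.05 over all genes. Hopxos, an RNA annotated on the strand opposite Hopx within its locus (GRCm38 chr5:77094532-77102303, + strand, the gene Hopx spanning chr5:77086988-77115121, - strand), was between 146 and 277 CPM (median 196) in Hopx+ cells and between 6.94 and 54.1 CPM (median 16.0) in astrocyte-high cells. The ranges did not overlap and the difference was 3.45 ± 0.21. As Hopx is a gene of the rule, as Hopxos lies inside it, and as the use of strand in the counting is not given in the sources used here, this value is not independent of the rule and is given with no test. Hopxos is still counted among the 14 and the 15 genes above and enters the median of the 21. As Hopx chose the Hopx+ cells, this list is in part a check of the split.

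Lpar1, a receptor for lysophosphatidic acid that marks dentate stem cells (GRCm38 chr4:58435255-58553898, - strand), was between 45.5 and 127 CPM (median 79.1) in Hopx+ cells and between 4.26 and 30.5 CPM (median 18.6) in astrocyte-high cells. Its ranges were apart and the difference was 2.90 ± 0.24 (adjusted p = 4.6e-11). The transcript 1500015O10Rik, which encodes the secreted peptide augurin, was between 156 and 426 CPM (median 266) in Hopx+ cells and between 12.3 and 227 CPM (median 36.6) in astrocyte-high cells. It was higher in Hopx+ cells in 7 of 7 experiments by 2.93 ± 0.21 (adjusted p = 3.91e-12), although the highest astrocyte-high sum exceeded the lowest Hopx+ sum. The naming of called genes required the same direction in all 7 experiments, so such a count was fixed by the choice of genes. Named called genes were also those with the largest differences, a choice that favours ranges that lie apart. How many of all tested genes have ranges apart is not given, so ranges that lie apart are a description here and below. Thrsp, a regulator of lipogenesis described in quiescent stem cells, was between 1446 and 2270.5 CPM (median 1660.0) in Hopx+ cells and between 497 and 1046 CPM (median 788) in astrocyte-high cells. All Hopx+ sums lay above all astrocyte-high sums, with a difference of 1.06 ± 0.09 (adjusted p = 6.1e-11). Fabp7, the brain fatty acid binding protein of radial glia, differed by 1.06 ± 0.09 (adjusted p = 2.54e-11), and Sox4, a transcription factor gene of neuronal commitment that was in the same list, by 2.07 ± 0.12 (adjusted p = 2.36e-14). Over all members Sox4 was not called (0.45 ± 0.28, adjusted p = 0.267).

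The endothelin receptor gene Ednrb went the other way. It was between 33.4 and 108 CPM (median 61.3) in Hopx+ cells and between 348 and 467 CPM (median 400.3) in astrocyte-high cells. The ranges were apart and the difference was -2.69 ± 0.13 (adjusted p = 5.74e-16). The transcription factor genes Sox9 and Pax6 of the neural stem cell state were not called once the precursor-gene cells were left out. Sox9 was between 329 and 605 CPM (median 398) in Hopx+ cells and between 245 and 487 CPM (median 362) in astrocyte-high cells, with a difference of 0.17 ± 0.08 (adjusted p = 0.0898) under TMM and 0.27 (adjusted p = 0.00777) under total UMIs. Pax6 differed by 0.02 ± 0.10 (adjusted p = 0.907). Over all members both were higher in Hopx+ cells, by 1.13 ± 0.27 (adjusted p = 0.00995) and 0.86 ± 0.22 (adjusted p = 0.0126). Gfap, the intermediate filament gene used to stain both stem cells and astrocytes, was also called over all members alone. It was between 323 and 816 CPM (median 491) in Hopx+ cells and between 337 and 714 CPM (median 413) in astrocyte-high cells and the difference was -0.06 ± 0.10 (adjusted p = 0.677), against 0.91 ± 0.20 (adjusted p = 0.00495) over all members. In the Version 3 libraries alone the restricted difference of Gfap was -0.31 (adjusted p = 0.00877).

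Astrocyte markers outside the rule were higher in astrocyte-high cells for 32 of the 35 tested, with none higher in Hopx+ cells and a median of -1.46. The 3 not called were Gfap, Kcnj10 and Itih3. Over all members 14 of 32 were higher in astrocyte-high and 2 in Hopx+ cells, with a median of -0.67. Summed over the list, the restricted astrocyte-high sums were all above the Hopx+ sums, which ran from 6883 to 11091 CPM against 18317 CPM in the lowest astrocyte-high sum. Over all members the lowest astrocyte-high sum was 7604 CPM and the highest Hopx+ sum was 10101 CPM. As astrocyte genes chose the cells, this list is a check of the split. Slc4a4, the sodium bicarbonate cotransporter gene (GRCm38 chr5:88886818-89239653, + strand), was between 37.9 and 227 CPM (median 64.4) in Hopx+ cells and between 511 and 1064 CPM (median 964) in astrocyte-high cells. The difference was -2.92 ± 0.17 (adjusted p = 3.32e-14). F3, which encodes tissue factor, differed by -2.89 ± 0.10 (adjusted p = 2.59e-18), and the zinc transporter gene Slc39a12 by -2.58 ± 0.13 (adjusted p = 9.36e-16). Aldh1a1, a retinaldehyde dehydrogenase gene that was too low to be tested over all members, was between 1.94 and 15.2 CPM (median 6.33) in Hopx+ cells and between 61.0 and 144 CPM (median 73.6) in astrocyte-high cells. The ranges were apart and the difference was -4.58 ± 0.25 (adjusted p = 8.34e-15).

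**Figure D2:**
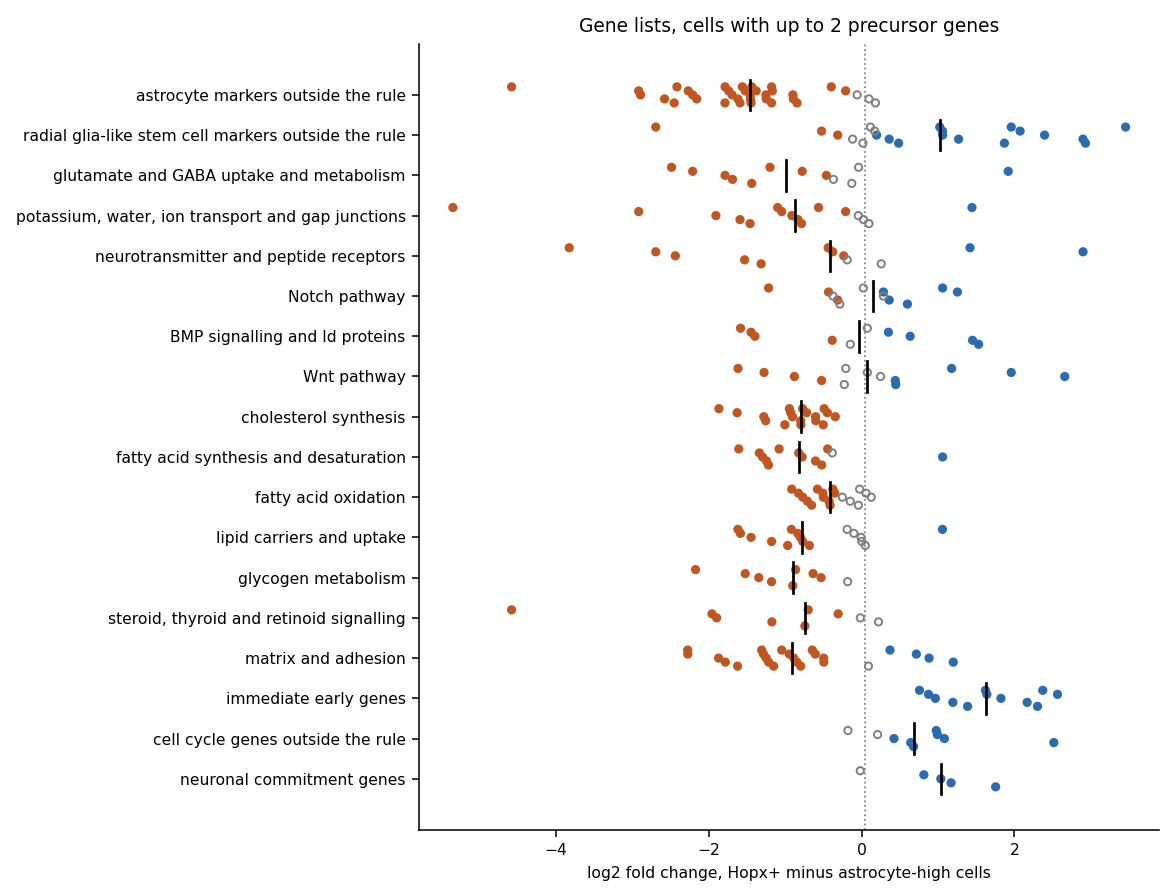
Fitted log2 fold change of Hopx+ minus astrocyte-high cells without precursor-gene cells (horizontal axis), with 1 point per tested gene, 1 row per gene list, filled points for genes at an adjusted p under 0.05, open points for the others, a black bar at the median of each list and a dotted line at the median of all tested genes. All 18 cholesterol synthesis genes lie to the left (higher in astrocyte-high cells) and all 12 immediate early genes to the right, while the Notch, BMP and Wnt lists have genes on both sides.

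Genes for potassium, water and ion transport were higher in astrocyte-high cells for 12 of 16, higher in Hopx+ cells for 1 and not called for 3. Over all members 6 of 18 were higher in astrocyte-high and 3 in Hopx+ cells. Kcnk1, a leak potassium channel gene (GRCm38 chr8:125995170-126030685, + strand), was between 0 and 7.78 CPM (median 5.07) in Hopx+ cells and between 119 and 209 CPM (median 151) in astrocyte-high cells. In 1 Hopx+ sum no UMI was counted, and the difference was -5.35 ± 0.20 (adjusted p = 8.7e-18). The inward rectifier gene Kcnj16 was between 18.1 and 38.9 CPM (median 23.9) in Hopx+ cells and between 64.9 and 119 CPM (median 87.9) in astrocyte-high cells, with a difference of -1.91 ± 0.15 (adjusted p = 2.72e-11). Its partner Kcnj10, the main potassium channel of astrocytes, was not called. It was between 121 and 331 CPM (median 213) in Hopx+ cells and between 119 and 287 CPM (median 193) in astrocyte-high cells and differed by 0.10 ± 0.09 (adjusted p = 0.407), while over all members it was called higher in Hopx+ cells (0.51 ± 0.13, adjusted p = 0.0154).

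Glutamate and GABA uptake and metabolism followed, with 8 of 12 genes higher in astrocyte-high and 1 higher in Hopx+ cells (5 and 1 of 14 over all members). Glul, the glutamine synthetase of astrocytes, was between 482 and 1236 CPM (median 992) in Hopx+ cells and between 2130.0 and 3397 CPM (median 2974) in astrocyte-high cells. It was higher in astrocyte-high cells in 7 of 7 experiments, with a difference of -1.79 ± 0.10 (adjusted p = 7.17e-15), while over all members the difference was not called (-0.90 ± 0.32, adjusted p = 0.0571). The serine and alanine transporter gene Slc7a10 differed by -2.21 ± 0.11 (adjusted p = 1.39e-15). Glutamine transporters went in opposite directions. Slc38a3, which releases glutamine from astrocytes, was between 9.60 and 73.9 CPM (median 28.6) in Hopx+ cells and between 89.3 and 244 CPM (median 157) in astrocyte-high cells, a difference of -2.49 ± 0.17 (adjusted p = 1.18e-12). Slc38a1, better known for uptake in neurons, was between 119 and 204 CPM (median 146) in Hopx+ cells and between 21.6 and 51.9 CPM (median 36.6) in astrocyte-high cells, a difference of 1.92 ± 0.14 (adjusted p = 4.49e-12). For both genes the ranges of the groups were apart.

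Receptor genes were higher in astrocyte-high cells for 8 of 12, against 23.4% of all genes. A further 2 (Lpar1 and the AMPA receptor gene Gria1) were higher in Hopx+ cells, a share below the 24.7% of all genes. Over all members the counts were 8 and 3 of 15. Gabrg1, a GABA-A receptor subunit gene, was between 0 and 22.7 CPM (median 8.13) in Hopx+ cells and between 75.7 and 192 CPM (median 130.0) in astrocyte-high cells. Its counterpart Gabra2 was between 7.60 and 17.5 CPM (median 15.2) in Hopx+ cells and between 42.6 and 129.8 CPM (median 81.2) in astrocyte-high cells. The ranges were apart for both, with differences of -3.83 ± 0.19 (adjusted p = 1.39e-15) and -2.44 ± 0.16 (adjusted p = 4.52e-13).

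The Notch, BMP and Wnt lists of the stem cell niche hold 26, 24 and 27 genes, of which 12, 10 and 13 were tested in the restricted cells. Their counts are read against the 24.7% and 23.4% of all genes that were higher in Hopx+ and in astrocyte-high cells. In the Notch pathway, by which neighbouring cells hold stem cells in quiescence, 5 of 12 genes were higher in Hopx+ cells and 3, a share near that of all genes, in astrocyte-high cells (4 each of 16 over all members). The receptor gene Notch2 was between 259.6 and 702 CPM (median 415) in Hopx+ cells and between 142 and 336 CPM (median 205) in astrocyte-high cells, higher in Hopx+ cells in 7 of 7 experiments by 1.06 ± 0.09 (adjusted p = 7.96e-11). Notch1 was not called (0.02 ± 0.12, adjusted p = 0.894). The ligand gene Jag1 differed by 0.60 ± 0.17 (adjusted p = 0.00451), and Hes6, a factor that opposes the Notch effector Hes1, by 1.25 ± 0.14 (adjusted p = 1.67e-08). Lfng, which modifies Notch receptors, was slightly higher in astrocyte-high cells (-0.31 ± 0.10, adjusted p = 0.00852) and was not called over all members (0.61 ± 0.29, adjusted p = 0.15). The restricted call was lost without the first experiment at 2 months (-0.21, adjusted p = 0.109), without its tdTomato+ library (-0.19, adjusted p = 0.0737) and under total UMIs (-0.21, adjusted p = 0.0693).

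In the BMP pathway, which also maintains quiescence, 4 of 10 genes were higher in each group (4 in Hopx+ and 1 in astrocyte-high cells, of 11, over all members). The inhibitor genes Nbl1 and Bambi were on the Hopx+ side. Nbl1, a secreted antagonist, was between 62.2 and 136 CPM (median 111) in Hopx+ cells and between 20.5 and 49.3 CPM (median 29.8) in astrocyte-high cells, a difference of 1.53 ± 0.17 (adjusted p = 8.31e-09). Bambi, a decoy receptor, was between 30.3 and 79.6 CPM (median 51.1) in Hopx+ cells and between 0 and 29.8 CPM (median 20.4) in astrocyte-high cells, a difference of 1.45 ± 0.17 (adjusted p = 3.52e-08). The target genes of the Id family, inhibitors of helix-loop-helix factors, were divided. Id2 was between 70.0 and 402 CPM (median 176) in Hopx+ cells and between 232 and 1071 CPM (median 393) in astrocyte-high cells, a difference of -1.58 ± 0.09 (adjusted p = 2.65e-14), and Id3 differed by -1.45 ± 0.16 (adjusted p = 1.83e-08), while Id1 and Id4 were called higher in Hopx+ cells. Over all members Id3 was not called (-0.68 ± 0.26, adjusted p = 0.0777).

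Of 13 Wnt pathway genes, 5 were higher in Hopx+ cells and 4 in astrocyte-high cells (4 and 2 of 14 over all members). The secreted Wnt antagonist genes Sfrp1 and Frzb were on the Hopx+ side. Dkk3, a related secreted protein, was not called (0.25 ± 0.12, adjusted p = 0.0919), while over all members it was called higher in Hopx+ cells (1.17 ± 0.23, adjusted p = 0.00271). Sfrp1 (GRCm38 chr8:23411502-23449632, + strand) was between 62.0 and 161 CPM (median 104) in Hopx+ cells and between 0 and 42.7 CPM (median 19.2) in astrocyte-high cells, and Frzb was between 107 and 277 CPM (median 145) in Hopx+ cells and between 11.6 and 67.9 CPM (median 43.3) in astrocyte-high cells. Neither gene's ranges overlapped, and the differences were 2.66 ± 0.21 (adjusted p = 2.19e-11) and 1.96 ± 0.21 (adjusted p = 9.28e-09). The receptor gene Fzd1 differed by 1.18 ± 0.17 (adjusted p = 8.46e-07). Daam2, an intracellular mediator, was between 35.1 and 87.3 CPM (median 60.6) in Hopx+ cells and between 119 and 227 CPM (median 180.0) in astrocyte-high cells, a difference of -1.62 ± 0.11 (adjusted p = 1.95e-12) that was not called over all members (-0.59 ± 0.33, adjusted p = 0.21).

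**Figure D3:**
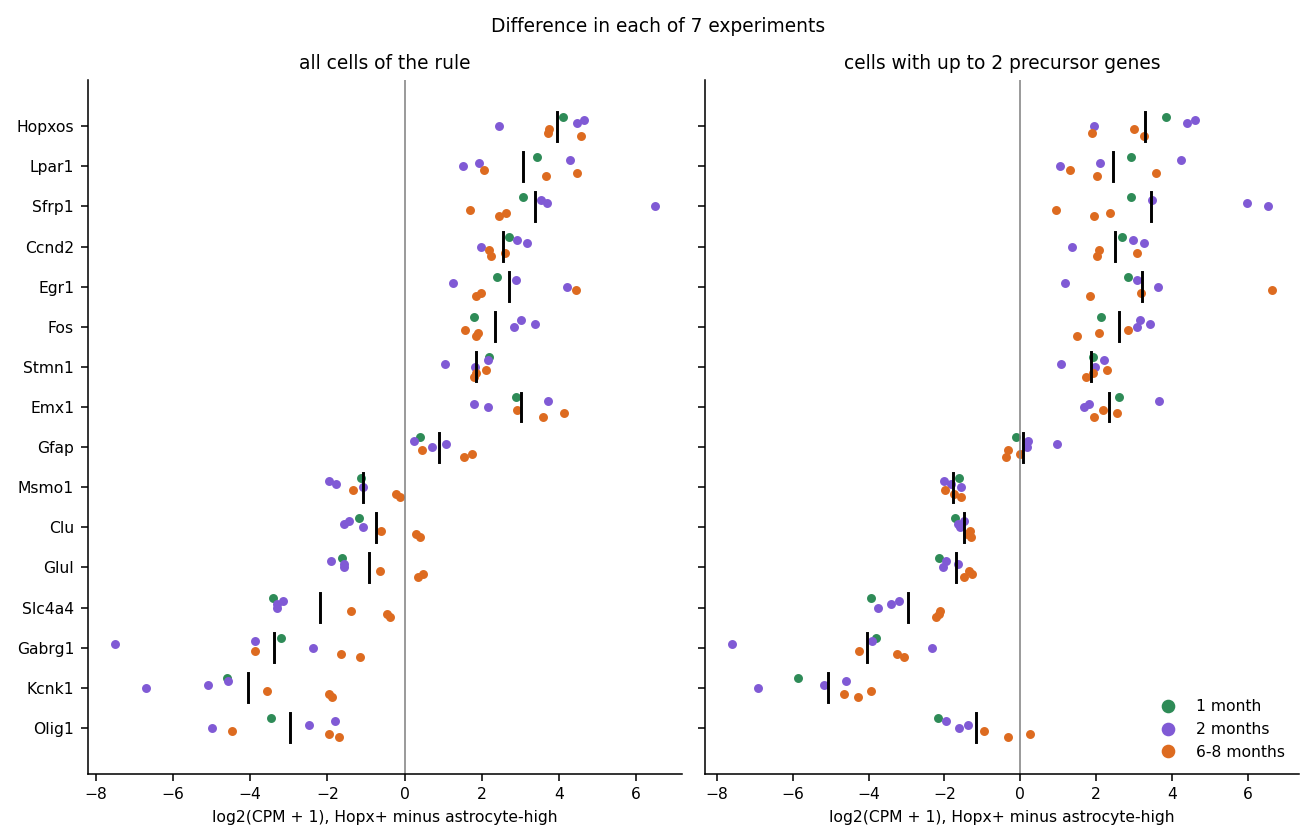
Difference of Hopx+ minus astrocyte-high cells on the log2(CPM + 1) scale (horizontal axis) for 16 genes, over all members (left panel) and without precursor-gene cells (right panel), with 1 point per experiment coloured by age and a black bar at the mean of the 7 experiments. The 8 genes from Hopxos to Emx1 lie to the right of 0 in every experiment, Gfap lies around 0 in the right panel, and Kcnk1 has the lowest mean in both.

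Lipid metabolism genes were largely on the astrocyte-high side. Each of the 18 cholesterol synthesis genes tested was higher in astrocyte-high cells, with a median of -0.79, whereas 4 of 18 were called over all members. The summed level of the list was 1132 to 1621 CPM in the Hopx+ sums and at least 1973 CPM in every astrocyte-high sum. Msmo1, a methylsterol oxidase of the late pathway, was between 141 and 241 CPM (median 152) in Hopx+ cells and between 427 and 855 CPM (median 579.8) in astrocyte-high cells. It differed by -1.87 ± 0.09 (adjusted p = 4.83e-16). Dhcr7, which encodes the reductase of 7-dehydrocholesterol, differed by -1.25 ± 0.16 (adjusted p = 9.44e-08). The early enzyme gene Mvd differed by -1.28 ± 0.17 (adjusted p = 1.97e-07).

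Fatty acid synthesis and desaturation had 11 of 13 genes higher in astrocyte-high cells, with Thrsp as the 1 gene higher in Hopx+ cells (6 and 1 of 14 over all members). Elovl5, which lengthens polyunsaturated fatty acids, was between 38.0 and 121 CPM (median 70.0) in Hopx+ cells and between 124 and 259.7 CPM (median 183) in astrocyte-high cells and differed by -1.61 ± 0.11 (adjusted p = 1.31e-12). The desaturase gene Fads2 differed by -1.30 ± 0.14 (adjusted p = 6.71e-09) and was not called over all members (-0.52 ± 0.23, adjusted p = 0.124). In fatty acid oxidation 12 of 18 genes were higher in astrocyte-high cells and none in Hopx+ cells, led by Cpt1a, which admits fatty acids to mitochondria (-0.91 ± 0.16, adjusted p = 3.55e-05), a gene that was not tested over all members. Over all members that list had 0 of 17 genes higher in astrocyte-high cells at an adjusted p under 0.05 and 1 higher in Hopx+ cells.

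Lipid carriers and uptake had 10 of 16 genes higher in astrocyte-high cells and 1 (Fabp7) higher in Hopx+ cells. Over all members 2 of 16 (Lrp1 and Npc1) were higher in astrocyte-high and 2 (Plin3 and Fabp7) in Hopx+ cells. Clu, the lipoprotein clusterin, was between 1981 and 3202 CPM (median 2846) in Hopx+ cells and between 5495 and 9309 CPM (median 7623) in astrocyte-high cells. Apoe, the main lipoprotein of brain, was between 15742 and 27567 CPM (median 22958) in Hopx+ cells and between 30369 and 48790.2 CPM (median 36546) in astrocyte-high cells. Both had ranges apart, with differences of -1.59 ± 0.08 (adjusted p = 7.45e-16) and -0.84 ± 0.08 (adjusted p = 1.57e-09). Over all members the difference of Apoe was -0.14 ± 0.22 (adjusted p = 0.698) and that of Clu -0.71 ± 0.26 (adjusted p = 0.0668), and neither was called. Lcat, which esterifies cholesterol on lipoproteins, differed by -1.62 ± 0.09 (adjusted p = 8.34e-15) and was not called over all members (-0.68 ± 0.24, adjusted p = 0.0531).

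Glycogen genes were higher in astrocyte-high cells for 8 of 9, among them the phosphorylase kinase subunit genes Phka1 (-2.17 ± 0.20, adjusted p = 3.19e-10) and Phkg1 (-1.52 ± 0.12, adjusted p = 7.6e-12). Over all members 1 of 10 (Phka1) was higher there and 9 were not called, with Phkg1 at -0.59 ± 0.34 (adjusted p = 0.235). Genes of steroid, thyroid and retinoid signalling were higher in astrocyte-high cells for 7 of 9, and for 3 of 8 over all members. Cyp7b1, an oxysterol hydroxylase gene, was between 22.7 and 76.7 CPM (median 50.9) in Hopx+ cells and between 97.8 and 247 CPM (median 171) in astrocyte-high cells, a difference of -1.96 ± 0.11 (adjusted p = 3.24e-14). Dio2, which activates thyroid hormone, differed by -0.74 ± 0.17 (adjusted p = 0.000469), and over all members by -0.05 ± 0.25 (adjusted p = 0.912).

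Of 24 matrix and adhesion genes, 19 were higher in astrocyte-high and 4 in Hopx+ cells (12 and 4 of 25 over all members). Bcan and Hapln1 of the perineuronal matrix were among the former. Bcan, which encodes brevican, was between 227 and 339 CPM (median 257) in Hopx+ cells and between 902 and 1706 CPM (median 1197) in astrocyte-high cells, a difference of -2.27 ± 0.10 (adjusted p = 3.99e-16), and the link protein gene Hapln1 differed by -2.28 ± 0.18 (adjusted p = 2.66e-11). The phagocytic receptor gene Mertk differed by -1.78 ± 0.16 (adjusted p = 3.34e-10), a difference that was not called over all members (-0.93 ± 0.32, adjusted p = 0.0501). Tnc, which encodes tenascin C of the embryonic and adult stem cell niche, was between 38.9 and 117 CPM (median 60.3) in Hopx+ cells and between 7.99 and 56.3 CPM (median 24.4) in astrocyte-high cells and was higher in Hopx+ cells by 1.20 ± 0.18 (adjusted p = 2.42e-06).

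Immediate early genes are transcribed within minutes of a stimulus and also during tissue dissociation. Of a list of 23, 12 were tested in the restricted cells. All 12 were called higher in Hopx+ cells, with a median of 1.63 (11 of 12 over all members). The summed level of the list was 3203 to 9718 CPM in the Hopx+ sums, and 913 to 2878 CPM in the astrocyte-high sums, which did not overlap. The zinc finger factor gene Egr1 was between 47.7 and 280.5 CPM (median 99.2) in Hopx+ cells and between 0 and 47.9 CPM (median 19.2) in astrocyte-high cells, a difference of 2.56 ± 0.20 (adjusted p = 1.78e-11). Fos, a subunit of AP-1, was between 484 and 2827 CPM (median 1159.5) in Hopx+ cells and between 67.1 and 607 CPM (median 181) in astrocyte-high cells, a difference of 2.30 ± 0.15 (adjusted p = 3.46e-13). Its ranges overlapped between experiments, while within each of the 7 experiments the Hopx+ sum was the higher. Btg2, an antiproliferative gene of neural precursors, differed by 2.37 ± 0.13 (adjusted p = 1.06e-14) and Ier2 by 2.17 ± 0.14 (adjusted p = 2.58e-13). Both groups came from the same dissociation in each experiment, and the part of dissociation in the difference was not tested.

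The promoters of the cholesterol and immediate early lists are shown for these results, since every gene of either list that was tested in the restricted cells went one way. Windows of 250 bases before to 50 after the RefSeq start (GRCm38.p6) were at hand for 13 of the 18 tested cholesterol genes and 9 of the 12 immediate early genes. Both strands were searched for the letters CCAAT (the CCAAT box), TCACNNCAC, TCACNCCAC and CACCCCAC (spellings within the sterol element), TGACGTCA and TGACGTNA (the cAMP response element) and TATAAA (the TATA box). The sterol spellings overlap one another, as do those of the cAMP response element, and CCAAT can overlap TCACNNCAC by its last letters. The windows shown, chosen after the search, are those of Msmo1 (chr8:64733529-64733828, minus strand) and Btg2 (chr1:134079106-134079405, minus strand). They are printed 5′ to 3′ in the direction of transcription, with CCAAT and TCACNNCAC in capitals in the first and CCAAT and TGACGTCA in capitals in the second, matched on either strand.
Msmo1: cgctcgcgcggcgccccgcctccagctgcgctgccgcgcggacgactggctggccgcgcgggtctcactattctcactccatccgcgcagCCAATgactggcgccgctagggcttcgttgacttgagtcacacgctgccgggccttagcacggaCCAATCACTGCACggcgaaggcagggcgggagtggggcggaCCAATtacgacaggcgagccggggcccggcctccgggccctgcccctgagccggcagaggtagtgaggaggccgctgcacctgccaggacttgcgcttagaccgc
Btg2: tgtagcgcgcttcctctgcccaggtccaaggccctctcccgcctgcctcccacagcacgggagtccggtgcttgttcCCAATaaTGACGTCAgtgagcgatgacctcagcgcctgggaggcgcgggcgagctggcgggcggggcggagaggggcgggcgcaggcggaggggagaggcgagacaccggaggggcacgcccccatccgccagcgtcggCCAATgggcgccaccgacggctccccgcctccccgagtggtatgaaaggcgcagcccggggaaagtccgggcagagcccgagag
CCAAT was present in 12 of 13 cholesterol windows (92.3%) and 6 of 9 immediate early windows (66.7%), against 37.9% of 27025 windows of all genes. TCACNNCAC was found in 2 of the 13 cholesterol windows (Msmo1 and Hmgcs1), in 0 of 9 immediate early windows and in 3.73% of all windows. TGACGTCA was in the windows of Btg2 and Dusp1, 2 of 9, against 1.88% of all windows, and TATAAA was in 3 of 9 immediate early and 0 of 13 cholesterol windows, against 14.2% of all. TGACGTNA was in 3 of 9 immediate early windows (3.08% of all). TCACNCCAC was in 1 of 13 cholesterol windows (1.22% of all) and CACCCCAC in 1 window of each list (2.77% of all). A match says only that the letters are in the window.

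Cells with more than 2 of the 10 cell cycle genes of the rule were left out. At least 1 of these genes was still held by 830 of 2160 Hopx+ cells (38.4%) and 648 of 2270 astrocyte-high cells (28.5%) over all members. These pooled shares mix experiments, in which they ran from 12.1% to 48.0% and from 10.7% to 52.8%. In the third experiment at 6-8 months the astrocyte-high share was the higher (52.8% against 45.7%). The Hopx+ share was the higher in the others, by little in the second at 2 months (12.14% against 12.09%). A list of 30 other genes of the cycle had 9 that passed the filter in the restricted cells. Mki67, Ccna2 and Ccnb2 were among those not tested. Of the 9, 7 were higher in Hopx+ cells and none in astrocyte-high cells. Over all members 4 of 10 were higher in Hopx+ cells and 2, the D-type cyclin genes Ccnd1 and Ccnd3, were higher in astrocyte-high cells (-1.65 ± 0.28, adjusted p = 0.00104 and -0.51 ± 0.15, adjusted p = 0.0256). Ccnd2, another D-type cyclin gene, was between 168 and 391 CPM (median 279.9) in Hopx+ cells and between 25.2 and 141 CPM (median 49.2) in astrocyte-high cells. The ranges were apart and the difference was 2.52 ± 0.14 (adjusted p = 1.21e-14). Its kinase gene Cdk4 differed by 0.99 ± 0.12 (adjusted p = 3.91e-08), the chromatin protein gene Hmgb2 by 1.08 ± 0.12 (adjusted p = 1.23e-08) and the tubulin gene Tubb5 by 0.98 ± 0.09 (adjusted p = 6.07e-10). Over all members Cdk4 and Tubb5 were not called (0.30 ± 0.19, adjusted p = 0.279, and 0.17 ± 0.16, adjusted p = 0.494).

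Of 18 genes of neuronal commitment, 5 were tested, and Dcx, Neurod1 and Tubb3 were among those not tested. Of the 5, 4 were higher in Hopx+ cells and none in astrocyte-high cells (3 and 1 of 7 over all members). Stmn1, which destabilises microtubules, was between 400.2 and 768 CPM (median 449) in Hopx+ cells and between 85.4 and 364 CPM (median 126) in astrocyte-high cells, a difference of 1.75 ± 0.11 (adjusted p = 1.35e-13). Prox1, the transcription factor gene of dentate granule neurons, was between 45.6 and 77.8 CPM (median 56.0) in Hopx+ cells and between 9.84 and 38.6 CPM (median 28.6) in astrocyte-high cells, a difference of 1.17 ± 0.20 (adjusted p = 1.81e-05). Ranges were apart for both. Gadd45g differed by 0.82 ± 0.10 (adjusted p = 3.7e-08). Stmn3 was between 52.5 and 91.0 CPM (median 74.0) in Hopx+ cells and between 10.8 and 51.4 CPM (median 30.6) in astrocyte-high cells without precursor-gene cells and between 52.5 and 173 CPM (median 87.9) in Hopx+ cells and between 43.7 and 457 CPM (median 202) in astrocyte-high cells over all members. It was thus higher in Hopx+ cells in the former (1.04 ± 0.18, adjusted p = 1.61e-05) and lower in the latter (-0.91 ± 0.23, adjusted p = 0.0133).

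Genes of other cell types were also measured in the restricted sums. The 8 mature neuron genes summed to between 50.6 and 93.1 CPM in Hopx+ cells and between 10.8 and 66.1 CPM in astrocyte-high cells, with none passing the filter. Oligodendrocyte precursor genes summed to between 56.8 and 167 CPM in Hopx+ cells, and to between 99.95 and 286 CPM in astrocyte-high cells, and of these Olig1 alone passed the filter. As Olig1 is one of the genes that chose the restricted cells, its difference there (-1.25 ± 0.21) is a description with no test. Over all members 8 of 8 were higher in astrocyte-high cells, with Olig1 at -2.75 ± 0.35 (adjusted p = 0.000158) and C1ql1 at -2.49 ± 0.37 (adjusted p = 0.000379). The 9 oligodendrocyte genes summed to between 182 and 2329 CPM and between 287 and 2794 CPM, the 9 microglia genes to between 31.6 and 50.95 CPM and between 36.9 and 985 CPM, and the 8 ependymal and choroid plexus genes to between 60.6 and 191 CPM and between 116 and 736 CPM, in Hopx+ and astrocyte-high cells respectively. For mural cells the 7 genes summed to at most 286 and 426 CPM, and for endothelial cells to at most 96.0 and 164 CPM. Of 3 oligodendrocyte genes tested, Cnp was higher in astrocyte-high cells, as were the single genes tested for mural cells (Pdgfrb) and ependymal cells (Rarres2), neither of which was called over all members. The 1 endothelial gene tested was not called. The part of these cell types in the results was not tested beyond the removal of precursor-gene cells.

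The reporters were compared as single values with a two-sided exact sign-flip test over the 7 experiments, for which the smallest p is 0.0156. The GFP transcript (eGFP) was between 606 and 2176 CPM in Hopx+ cells and between 107 and 546 CPM in astrocyte-high cells. It was higher in Hopx+ cells in 7 of 7 experiments by 1.84 on the log2(CPM + 1) scale (SD 0.81, n = 7, 3.58-fold, exact sign-flip p = 0.0156). Without precursor-gene cells the difference was 2.32, and without the tdTomato+ library it was 1.71, with the same p by the same exact test. Both groups had been sorted on GFP apart from the double-negative cells of that library. In it, astrocyte-high cells held 7.63 CPM of eGFP, against 207 CPM in the tdTomato- library of the same experiment.

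The transcript of the unrecombined tdTomato locus (tdTomatoLoxP) was between 1297 and 3285 CPM in Hopx+ cells and between 1310 and 2601 CPM in astrocyte-high cells. It was higher in Hopx+ cells in 6 of 7 experiments by 0.38 (SD 0.28, n = 7, exact sign-flip p = 0.0312). The groups overlapped across experiments, and without precursor-gene cells the difference was 0.52 (exact sign-flip p = 0.0469, n = 7). The elements read from the recombined locus were low in both groups. WPRE lay between 42.2 and 147 CPM in Hopx+ cells and between 39.3 and 161 CPM in astrocyte-high cells, and bGHpolyA between 7.92 and 30.8 CPM and between 4.37 and 35.4 CPM. Their ranges overlapped. UMIs per cell, which could move such values, differed by 0.05 on the log2 scale (SD 0.21, n = 7, exact sign-flip p = 0.516) over all members and by 0.21 (exact sign-flip p = 0.0312, n = 7, higher in Hopx+ cells in 6 of 7) without precursor-gene cells, and the part of depth was not tested.

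**Figure D4:**
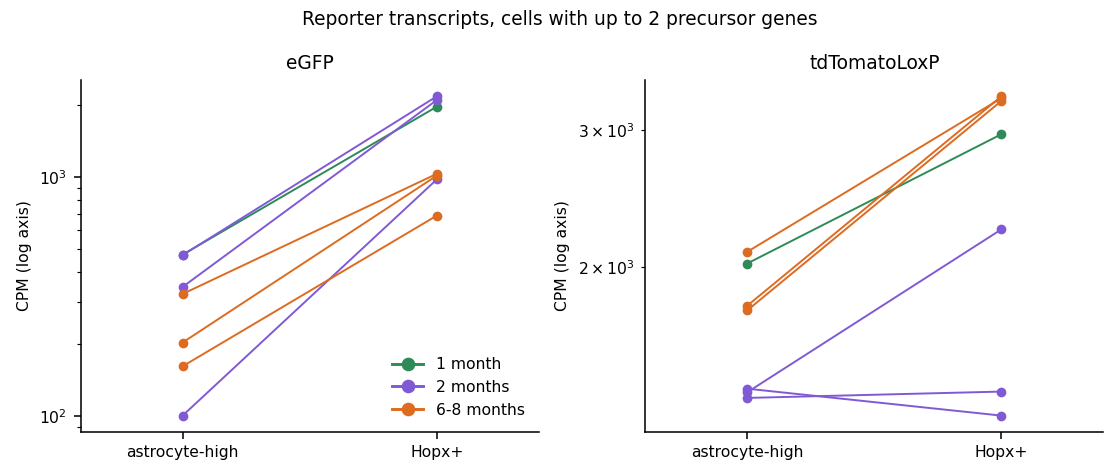
Levels of eGFP and tdTomatoLoxP (CPM, log axes with different ranges) in astrocyte-high and Hopx+ cells without precursor-gene cells, with 1 line per experiment coloured by age. All 7 eGFP lines rise from astrocyte-high to Hopx+ cells, and 6 of 7 tdTomatoLoxP lines do.

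Whether the difference between Hopx+ and astrocyte-high cells itself differed with age was tested as an interaction. Over all members 1194 of 5898 genes (20.2%) differed between 6-8 and 2 months, 782 upward and 412 downward, and 287 (4.87%) differed between 6-8 months and 1 month. Under total UMIs 574 differed upward and 747 downward against 2 months, so that the balance of the 2 directions depends on the scaling. Without precursor-gene cells the counts were 85 of 4921 (1.73%), 45 upward and 40 downward, and 35 (0.711%), 33 upward and 2 downward. Over all members, precursor-gene cells were 68.9% and 74.5% of astrocyte-high cells in the second and the third experiment at 6-8 months, against at most 31.9% in every other experiment. Both contrasts share the experiments at 6-8 months, the first compares Version 3 with Version 2 chemistry, and the second rests on 1 experiment at 1 month, which is assumed to vary like those at the other ages, since its standard errors and p-values take their spread from those.

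Sdc4 and Sox4 differed by age over all members and were not called in the restricted cells. The difference of the heparan sulfate proteoglycan gene Sdc4 rose by 2.09 ± 0.18 from 2 to 6-8 months over all members (adjusted p = 2.77e-06). In the restricted cells the value was 0.46 ± 0.17 (adjusted p = 0.186). For Sox4 the corresponding values were -1.96 ± 0.18 (adjusted p = 2.77e-06) and 0.49 ± 0.27 (adjusted p = 0.471).

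In the restricted cells, 7 of 35 astrocyte markers differed upward and 1 downward against 2 months, and 7 of 35 differed upward against 1 month, where 1.73% and 0.711% of all genes were called. An upward interaction of a gene that is higher in astrocyte-high cells means a smaller gap between the groups at 6-8 months. Astrocyte genes made the split, and the mean share of the 5 genes also differed between experiments. Over all members it was 0.222% at 1 month, 0.236% to 0.301% at 2 months and 0.157% to 0.205% at 6-8 months in astrocyte-high cells. In Hopx+ cells it was 0.019%, 0.011% to 0.022% and 0.029% to 0.039%. These values include precursor-gene cells, which the restricted interactions leave out. Summed over cells, the 5 genes made up 0.134% of UMIs in precursor-gene astrocyte-high cells and 0.265% in the others. For Hopx+ cells the same shares were 0.0567% and 0.0221%. Shares by experiment are not given for the restricted cells. The part of the split in the smaller gaps was not tested. The values by age given next are means over experiments of the difference in log2(CPM + 1). The interactions are edgeR estimates, so they need not equal the gaps between these means. Slc4a4 differed between the groups by -3.94 in the experiment on mice aged 1 month, by -3.44 in those aged 2 months and by -2.16 in those aged 6-8 months. The interaction was 1.14 ± 0.19 against 2 months (adjusted p = 0.000421) and 1.78 ± 0.17 against 1 month (adjusted p = 1.03e-08). The chemokine gene Cxcl14 differed by -3.09, -2.59 and -1.63 at the 3 ages, with interactions of 0.85 ± 0.16 (adjusted p = 0.0011) and 1.46 ± 0.18 (adjusted p = 1.81e-06). The metalloproteinase inhibitor gene Timp4 went from -2.73 and -1.83 to -1.04, with interactions of 0.63 ± 0.17 (adjusted p = 0.0376) and 1.65 ± 0.18 (adjusted p = 2.18e-07). The serine protease gene Htra1 had interactions of 0.89 ± 0.14 (adjusted p = 0.000196) and 0.70 ± 0.16 (adjusted p = 0.0197).

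Fos and Frzb differed against 2 months and not against 1 month, and for both the difference at 2 months stood apart from both Version 3 ages. Fos differed between the groups by 2.13, 3.22 and 2.14 in the same order of ages, again as means on the log2(CPM + 1) scale. Its interaction was -1.37 ± 0.19 against 2 months (adjusted p = 6.33e-05) and -0.32 ± 0.22 against 1 month (adjusted p = 0.763). Frzb differed by 1.55, 3.07 and 1.32, with interactions of -2.22 ± 0.34 (adjusted p = 0.000122) and -0.30 ± 0.32 (adjusted p = 0.874). At 2 months, age and chemistry cannot be told apart.

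**Figure D5:**
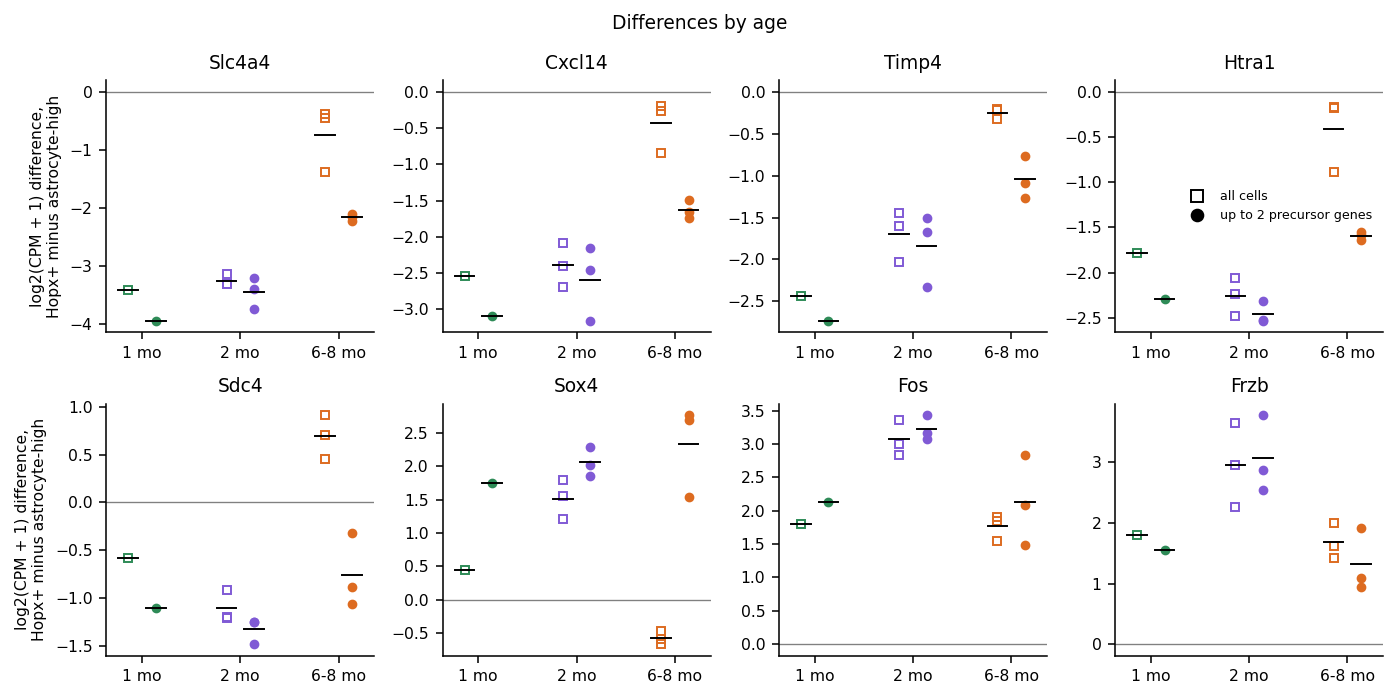
Difference of Hopx+ minus astrocyte-high cells on the log2(CPM + 1) scale (vertical axis) by age in months (horizontal axis) for 8 genes, with open squares for all members, filled circles for the cells without precursor-gene cells, 1 symbol per experiment and a bar at the mean. For Slc4a4 the difference without these cells goes from -3.94 at 1 month to a mean of -2.16 at 6-8 months, and for Sdc4 and Sox4 the values at 6-8 months lie apart between the 2 sets of cells.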

How the data were processed

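Dentate gyrus cells of 7 experiments were analysed from 1 matrix of UMI counts, deposited by the authors as whole-number counts for 31058 genes and reporter elements in 26036 barcodes. The submitters' processing notes name cutadapt 1.18, Cell Ranger 3.0.2, Seurat and the build mm10; the authors mapped to a custom genome with reporter sequences added and merged the libraries without normalization. Each barcode's suffix names its library.

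The members and gene lists were chosen with earlier results of these data known. Counts were summed per experiment and group. The 29 genes of the rule were kept in library totals and left out of tests, and a gene was tested where 10% of cells or more held a UMI, averaged over the groups, with edgeR 4.0.16 (R 4.3.3, limma 3.58.1), quasi-likelihood test, TMM scaling, experiment as block and Benjamini-Hochberg adjustment at 0.05. The block follows the design, since an experiment's groups share animals and dissociation. The study's own tests took cells as replicates. DESeq2 1.42.0, total UMI scaling, other filters and limits, each chemistry alone and each experiment left out were alternatives. Reporters were compared with an exact sign-flip test on log2(CPM + 1), and Python 3.11.15 was used.

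Named genes of each list were up to 4 called genes with at least 20 CPM and the largest differences. Up to 2 genes not called, those with the highest CPM, were added per list. Outside the lists, up to 10 called genes per direction with at least 50 CPM and the largest differences were named. These called genes had to go the same way in every experiment. Each interaction added up to 6 genes with the smallest p, and the text takes part of them all. On simulated counts in which 200 genes had a log2 change of 1, 52.3% were recovered over 5898 genes, with 4.06% of calls false, and 51.8% and 2.30% over 4921 genes without precursor-gene cells. The simulation gave every gene of both sets the same dispersion and changed fewer genes than were called in the data. These rates therefore do not measure recovery or false calls in the data. Promoters are RefSeq, positions GENCODE annotation of GRCm38. Sums of few cells carry counting error, and the smallest held 65 cells over all members and 47 without precursor-gene cells.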

Additional observations from a re-analysis of the deposited data

Results flagged for a closer look

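For each named gene the differences of the 7 experiments, on the log2(CPM + 1) scale, were searched for an experiment far from the others by Dixon's test. Of 168 groups looked at, 16 had one, in 13 genes, and 9 of the 16 were the third experiment at 2 months, the one with the fewest cells; chance alone flags about 1 in 20 groups.
Over all members, the second experiment at 2 months had a difference of -7.51 for Gabrg1 (median of the experiments -3.19), 2.09 for Hmgb2 (median of the experiments 1.07) and 1.05 for Stmn1 (median of the experiments 1.85). Over all members, the third experiment at 2 months had a difference of 2.53 for Notch1 (median of the experiments 0.14), 6.47 for Sfrp1 (median of the experiments 3.08) and -6.97 for Lmo4 (median of the experiments -3.37). Without precursor-gene cells, the second experiment at 2 months had a difference of 0.98 for Gfap (median of the experiments -0.02), -7.59 for Gabrg1 (median of the experiments -3.80) and 1.27 for Ier2 (median of the experiments 2.31). Without precursor-gene cells, the third experiment at 2 months had a difference of -0.33 for Sox9 (median of the experiments 0.34), 2.52 for Notch1 (median of the experiments 0.05), 4.97 for Bambi (median of the experiments 1.41), -2.68 for Cpt1a (median of the experiments -0.79), 7.10 for Tox3 (median of the experiments 2.24) and -7.03 for Lmo4 (median of the experiments -3.29). Without precursor-gene cells, the first experiment at 6-8 months had a difference of -6.09 for Mir124-2hg (median of the experiments -3.81). In the restricted cells Gabrg1, Sfrp1, Bambi, Tox3, Lmo4 and Mir124-2hg each had a sum with no counted UMI. A difference from such a sum depends on the 1 added to CPM.

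Without precursor-gene cells, the difference between Hopx+ and astrocyte-high cells itself differed with age in the interaction test for these genes (edgeR, adjusted p under 0.05). Between 6-8 and 2 months the interaction was 1.14 ± 0.19 for Slc4a4, 0.85 ± 0.16 for Cxcl14, 0.63 ± 0.17 for Timp4, 0.89 ± 0.14 for Htra1, 0.76 ± 0.18 for Slc7a10, 1.20 ± 0.17 for Luzp2, 0.76 ± 0.19 for Selenop, 1.57 ± 0.31 for Olig1 and 1.58 ± 0.24 for Mtss1l. In the other direction it was -1.37 ± 0.19 for Fos, -2.22 ± 0.34 for Frzb and -1.19 ± 0.17 for Ctnnbip1. Between 6-8 months and 1 month it was 1.78 ± 0.17 for Slc4a4, 1.65 ± 0.18 for Timp4, 1.46 ± 0.18 for Cxcl14, 1.31 ± 0.22 for Selenop, 0.97 ± 0.18 for Luzp2, 0.70 ± 0.16 for Htra1 and 1.97 ± 0.34 for Olig1. Olig1 is one of the 9 genes that chose the restricted cells, so its values are a description and not a test. Chemistry changes with the age of 2 months, and 1 month is 1 experiment, assumed to vary like the others.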

How the results depend on the processing

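The number of genes tested changed with the setting, and counts of calls are to be read against it. Over all members, 755 genes were higher in Hopx+ and 845 in astrocyte-high cells, of 5898 tested. These counts became 1307 and 2071 of 18949 with no filter, and 415 and 516 of 6275 with no condition on Hopx. Without precursor-gene cells they were 1216 and 1150 of 4921. With limits of 0.05% and 0.2% in place of 0.1%, 1228 of 5124 were higher in Hopx+ cells over all members. Leaving out 1 experiment gave 508 to 808 and 583 to 834, with 5080 to 6322 genes tested. Without the replicate block the counts were 360 and 392 over all members and 620 and 722 without precursor-gene cells. In the restricted cells Version 2 alone gave 694 and 686 of 2883 tested. There, leaving out 1 experiment gave 914 to 1147 and 1025 to 1215, with 4408 to 5276 tested. Genes that differed by age against 2 months and 1 month, 1194 and 287, became 579 and 586 in cells of at least 3000 UMIs, 45 and 17 with the 0.05% and 0.2% limits, 85 and 35 without precursor-gene cells, and 85 and 37 when these were also scaled by total UMIs; the experiment is the block in each of these. In cells of at least 3000 UMIs, 5 experiments were left and 7197 genes were tested. There the second experiment at 2 months held 4 Hopx+ and 2 astrocyte-high cells, and the third held 5 and 8. Both fell under the minimum of 10 cells, so the age of 2 months rests on its first experiment alone. The part of depth in the counts of 579 and 586 was not tested. The 0.05% and 0.2% limits leave out cells between them, many of which are precursor-gene cells. The cause of the other shifts was not tested.

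UMIs per cell differed by 0.05 on the log2 scale but by -0.083 in Version 3 alone and -0.081 in cells of at least 3000 UMIs, and by 0.25 with the 0.05% and 0.2% limits, 0.20 with no other-lineage gene and 0.21 without precursor-gene cells, with an exact sign-flip p of 0.0156, 0.0312 and 0.0312 in the last 3. The difference of tdTomatoLoxP was 0.32 to 0.44 with 1 experiment left out, where the smallest exact sign-flip p is 0.0312 and 6 of 7 fits missed 0.05, and 0.25 (exact sign-flip p = 0.0625) with no condition on Hopx. eGFP kept its direction under all alternatives run. Over all members Gfap turned to -0.057 with no other-lineage gene and -0.0047 with no condition on Hopx, Lfng to -0.47 in Version 2 alone, and Stmn3 to 0.23 in Version 2 alone, 0.52 with the 0.05% and 0.2% limits, 1.01 with no other-lineage gene and 0.18 with no condition on Hopx.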

Other observations

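Outside the gene lists, the genes with the largest called differences without precursor-gene cells included developmental and cytoskeletal genes in Hopx+ cells. Emx1, a homeobox gene of the dorsal telencephalon, was between 87.5 and 177 CPM (median 159) in Hopx+ cells and between 12.7 and 54.1 CPM (median 25.2) in astrocyte-high cells, a difference of 2.54 ± 0.18 (edgeR adjusted p = 1.4e-12), higher in Hopx+ cells in 7 of 7 experiments. The microfibril gene Mfap2 was between 103 and 409 CPM (median 118) in Hopx+ cells and between 14.6 and 40.9 CPM (median 15.6) in astrocyte-high cells, a difference of 2.93 ± 0.16 (adjusted p = 8.11e-15). Map1b, a microtubule-associated protein gene of growing neurites, was between 54.5 and 144 CPM (median 85.9) in Hopx+ cells and between 6.10 and 21.6 CPM (median 16.4) in astrocyte-high cells, a difference of 2.84 ± 0.21 (adjusted p = 3.07e-12). The ranges of the groups were apart for these 3 genes, which were chosen for their large differences. Marcksl1 and Tox3 differed by 2.23 ± 0.15 and 2.25 ± 0.20 without precursor-gene cells (adjusted p = 5.1e-13 and 2.13e-10), and neither was called over all members (0.16 ± 0.27 and 0.71 ± 0.33, adjusted p = 0.724 and 0.137). The pentraxin gene Ptx3 differed by 1.94 ± 0.16 (adjusted p = 5.08e-11).

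On the astrocyte-high side, Mir124-2hg, the host transcript of a miR-124 locus, was between 0 and 12.6 CPM (median 7.58) in Hopx+ cells and between 54.3 and 137 CPM (median 104) in astrocyte-high cells, a difference of -4.07 ± 0.20 (adjusted p = 1.03e-15). Pfkp, a phosphofructokinase gene of glycolysis, was between 0 and 15.6 CPM (median 8.13) in Hopx+ cells and between 78.6 and 162 CPM (median 90.5) in astrocyte-high cells, a difference of -3.56 ± 0.21 (adjusted p = 4.14e-14). Tmem176a and the LIM-domain gene Lmo4 differed by -3.21 ± 0.12 (adjusted p = 1.23e-17) and -3.14 ± 0.20 (adjusted p = 2.52e-13), with every astrocyte-high sum above every Hopx+ sum for both. Igfbp2, a growth factor binding protein gene that was tested over all members and fell under the filter without precursor-gene cells, differed by -3.70 ± 0.38 over all members (adjusted p = 5.13e-05).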
